A study of Homo sapiens with 18 samples.

Results

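Genes of fatty acid desaturation and elongation were followed in 18 RNA-seq libraries of NK/T cell lymphoma cells given icaritin or DMSO. The desaturases were FADS1, FADS2, FADS3 and SCD, and the elongases were ELOVL1, ELOVL5, ELOVL6 and ELOVL7. They were taken by NCBI Gene ID and were 8 of the 21662 genes listed in any library; all 8 were listed in all 18 libraries and all 8 passed the filter on low counts, as did 14396 genes in all. They were selected on their family, with measured values in view: their FPKM levels and their icaritin responses in the 3 lines. Those levels and responses, and the differences of response between lines, are therefore given as a description, without p-values. A gene is called where its adjusted p in the fit over all 14396 genes was under 0.05, and each count of called members stands beside the percentage of all tested genes that were called.

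The cells were SNT-8, SNK-10 and SNT-16, established lymphoma lines of NK/T cell type with a wild-type genotype in the labels. Each line was exposed for 12 h to icaritin, a prenylated flavonoid from Epimedium, or to DMSO, the solvent control, with 3 libraries in each of the 6 groups. Each line is a single line, the dose of icaritin is not given in the sources used here, and the labels do not say whether replicates were separate cultures, so the tests measure the spread between these libraries, which may be technical. The expected counts, the authors' estimated fragments per gene, summed to between 9526431 and 10100453 per library. The labelled cell type was checked on marker genes: the summed FPKM (fragment counts corrected for the length of the transcript and the size of the library) of 8 NK and T cell markers was 1099 to 2827 per library. The sums over lists of 4 markers each were 0.3 to 2.11 for B cells, 13.4 to 29.7 for myeloid cells, 1.95 to 3.66 for epithelial cells, 0.52 to 2.33 for fibroblasts and 0.52 to 0.98 for hepatocytes and adipocytes. EPCAM and PLIN1 were not found in any library, so the epithelial sum and the hepatocyte and adipocyte sum were over 3 genes each. In a chi-square comparison of replicate counts, SNT-8 icaritin replicate 2 stood apart from its group, at 5.96 and 8.2 per gene against 3.09 between the other replicates, and so did SNK-10 icaritin replicate 3, at 3.4 and 4.13 against 1.53. Calls of members that change without these libraries are given with the values obtained without them. In bulk RNA, fewer cells expressing a gene and less RNA per cell cannot be told apart.

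Fatty acids made by the cytosolic synthase are mostly saturated and stop at palmitate. Elongases of the endoplasmic reticulum carry out the condensing step that adds carbons to the chain, and desaturases insert double bonds with electrons passed through cytochrome b5. SCD makes oleate and palmitoleate from saturated chains, whereas FADS2 and FADS1 act in turn, with ELOVL5 between them, to turn the essential fatty acids linoleate and alpha-linolenate into arachidonate and eicosapentaenoate. Transcription of several of these genes is driven by the sterol-regulated factor SREBP-1c and by the oxysterol receptor LXR, together with the CCAAT-binding factor NF-Y and the GC-box factor Sp1.

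SCD, ELOVL1 and ELOVL6 were the members called lower with icaritin in all 3 lines, and the promoter windows of these genes are shown for that reason. The windows run from 250 bases before to 50 bases after the gene start in RefSeq on GRCh38.p14 and are printed 5′ to 3′ on the strand of the gene; capitals mark CCAAT or its reverse complement ATTGG. They lie at chr10:100346983-100347282 on the plus strand for SCD, chr1:43367962-43368261 on the minus strand for ELOVL1 and chr4:110198566-110198865 on the minus strand for ELOVL6.
SCD: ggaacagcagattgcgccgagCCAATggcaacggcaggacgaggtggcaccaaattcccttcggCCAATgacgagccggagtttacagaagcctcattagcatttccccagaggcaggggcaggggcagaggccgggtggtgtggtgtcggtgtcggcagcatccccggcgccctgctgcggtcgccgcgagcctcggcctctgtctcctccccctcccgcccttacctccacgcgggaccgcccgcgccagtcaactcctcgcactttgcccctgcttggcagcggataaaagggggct
ELOVL1: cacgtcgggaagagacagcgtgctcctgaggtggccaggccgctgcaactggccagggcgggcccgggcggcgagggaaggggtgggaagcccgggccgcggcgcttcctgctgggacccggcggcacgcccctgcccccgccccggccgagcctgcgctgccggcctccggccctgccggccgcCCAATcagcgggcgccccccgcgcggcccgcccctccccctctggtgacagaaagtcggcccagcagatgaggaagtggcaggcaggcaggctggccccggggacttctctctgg
ELOVL6: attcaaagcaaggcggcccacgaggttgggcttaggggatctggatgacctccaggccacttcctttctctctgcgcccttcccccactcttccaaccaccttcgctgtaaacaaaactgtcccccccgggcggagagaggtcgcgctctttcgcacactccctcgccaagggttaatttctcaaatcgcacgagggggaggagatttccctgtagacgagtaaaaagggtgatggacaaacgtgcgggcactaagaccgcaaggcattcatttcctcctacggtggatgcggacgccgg

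The SCD window held CCAAT at 2 places, the ELOVL1 window at 1, and the ELOVL6 window at none. CCAAT, searched on both strands, was present in 34.6% of the 35116 RefSeq windows of this length. The GC box, counted as GGGCGG or its reverse complement CCGCCC, occurred 2 times in the SCD window, 5 times in the ELOVL1 window and 1 time in the ELOVL6 window. It was present at least once, on either strand, in 45% of all windows. The sterol regulatory element TCACNCCAC, present on either strand in 1.13% of windows, was found on neither strand in any window of the 8 members. The E-box CACGTG, present in 7.26% of windows, was found among the members only in the ELOVL5 window. All 8 members matched the table, FADS2 with 2 windows. A match is a description of letters and not a binding site, and no match says only that these letters are not in this window.

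In DMSO libraries, SCD and ELOVL5 were the most abundant members per length in every line, and FADS1 or ELOVL7 the least. By mean FPKM, SCD came before ELOVL5 in both SNT lines under DMSO, at 121 against 70.9 FPKM in SNT-8 and 112 against 69.1 FPKM in SNT-16. ELOVL5 came before SCD in SNK-10 under DMSO, at 123 against 82.9 FPKM. In the icaritin libraries ELOVL5 was first and SCD second in all 3 lines, at 73.7 and 67.5 FPKM in SNT-8, 133 and 54.4 FPKM in SNK-10, and 78.2 and 72.7 FPKM in SNT-16. The ranges of neighbouring members in this order did not overlap, with 2 exceptions. ELOVL7 and FADS1 overlapped at the bottom of the order in both SNT lines under either treatment, and ELOVL6 and FADS3 overlapped in SNT-8 under DMSO.

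**Figure D1:**
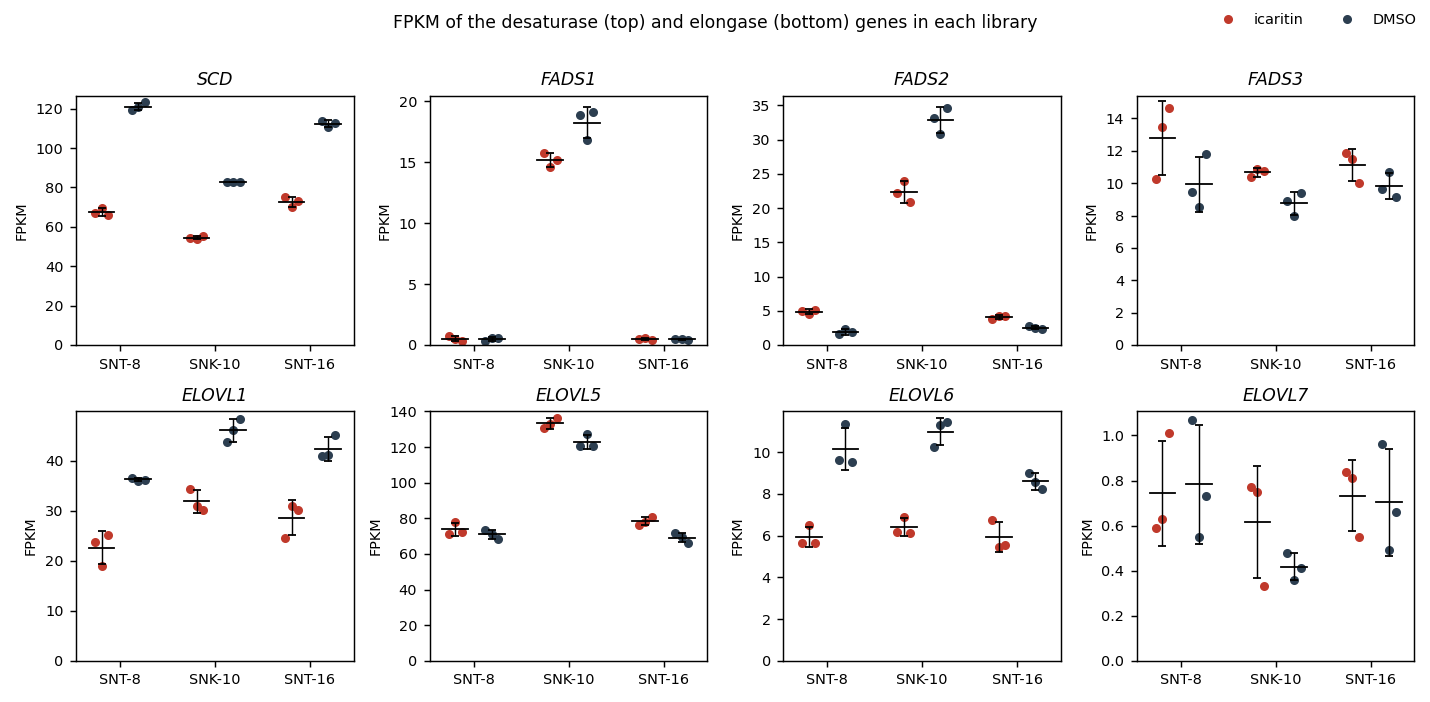
FPKM of each member in each library, with icaritin in red left of DMSO in dark blue for each line; points are the 3 libraries of a group, the horizontal bar is their mean and the error bar their SD. SCD, ELOVL1 and ELOVL6 were lower in the icaritin libraries of all 3 lines, and FADS1 and FADS2 were far higher in SNK-10 than in either SNT line.

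SCD, the desaturase that places a double bond in stearate and palmitate, was lower with icaritin in each line. Its FPKM was 66.85, 69.76 and 65.87 in icaritin libraries of SNT-8, against 119.11, 120.96 and 123.13 in its DMSO libraries. In SNK-10 it was 54.52, 53.65 and 55.08 with icaritin and 82.90, 82.88 and 82.95 with DMSO. In SNT-16 the icaritin libraries had 74.89, 70.12 and 73.02 FPKM and the DMSO libraries 113.92, 110.60 and 112.58 FPKM. No icaritin library of a line reached the lowest DMSO library of that line. Icaritin over DMSO gave a log2 fold change of -0.89 (SE 0.0423) in SNT-8, -0.57 (SE 0.0430) in SNK-10 and -0.65 (SE 0.0422) in SNT-16, called in each.

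The SCD response was not of 1 size in the 3 lines. The response of SNK-10 minus that of SNT-8 was 0.31 on the log2 scale (SE 0.0601), called, so the fall was smaller in SNK-10; 10.8% of tested genes were called for this pair of lines, 12.5% for SNK-10 and SNT-16, and 0.438% for SNT-8 and SNT-16. The response of SNK-10 minus that of SNT-16 was 0.08 (SE 0.0601) and that of SNT-8 minus that of SNT-16 was -0.24 (SE 0.0595), and neither was called. The last was called without SNT-8 icaritin replicate 2 (-0.27) or SNK-10 icaritin replicate 3 (-0.24), without the filter (-0.23) and with DESeq2 (-0.24). At an unadjusted p under 0.05 in edgeR, 3 members (FADS2, SCD and ELOVL5) passed for this pair, beside 14% of all tested genes. In the interaction test over all 3 lines, SCD and FADS2 were the members called, as were 14.3% of all tested genes.

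FADS2, the desaturase of the first step from linoleate, was higher with icaritin in both SNT lines and lower in SNK-10. Its FPKM was 4.96, 4.50 and 5.14 in icaritin libraries of SNT-8 and 1.54, 2.30 and 1.89 in its DMSO libraries. In SNT-16 it was 3.77, 4.21 and 4.2 with icaritin and 2.73, 2.45 and 2.39 with DMSO. In SNK-10 the icaritin libraries had 22.23, 24.00 and 20.82 FPKM, against 33.12, 30.81 and 34.61 FPKM in the DMSO libraries. The icaritin and DMSO libraries did not overlap in any line, and the lowest SNK-10 library stood above the highest library of either SNT line. On the log2 scale the change was 1.31 (SE 0.126) in SNT-8, 0.64 (SE 0.123) in SNT-16 and -0.52 (SE 0.0638) in SNK-10, called in each. The fold change was 2.48 in SNT-8 and 1.56 in SNT-16.

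The FADS2 response of SNK-10 minus that of SNT-8 was -1.83 (SE 0.141), and that of SNK-10 minus that of SNT-16 was -1.17 (SE 0.138), both called. The response of SNT-8 minus that of SNT-16 was 0.66 (SE 0.180) and was not called, though it was without SNT-8 DMSO replicate 2 (0.82) or SNT-8 icaritin replicate 2 (0.70) and without the filter (0.67). Calls higher in SNT-8 and SNT-16 and lower in SNK-10 were made for 32 of the 14396 genes, or 0.222%, and the reverse pattern for 52 genes, or 0.361%. FADS2 was the member among the 32, a pattern that was in view when the members were chosen.

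FADS1, which carries out the later desaturation that yields arachidonate, was near the limit of counting in the SNT lines. Its FPKM was 0.74, 0.48 and 0.34 with icaritin and 0.35, 0.59 and 0.55 with DMSO in SNT-8, and 0.46, 0.57 and 0.44 with icaritin and 0.52, 0.48 and 0.40 with DMSO in SNT-16. These values came from 15.1 to 32.3 expected counts per library, and the groups overlapped in both lines. In SNK-10 it had 15.75, 14.62 and 15.15 FPKM in icaritin libraries and 18.83, 16.81 and 19.09 FPKM in DMSO libraries, with no overlap. The SNK-10 log2 fold change was -0.23 (SE 0.0742) and was called; the values were -0.02 (SE 0.252) in SNT-8 and 0.07 (SE 0.261) in SNT-16, not called. The SNK-10 call was lost in 4 of 25 alternative settings, among them the analysis of log2(FPKM + 0.1) with limma (log2 fold change -0.26) and the fits without DMSO replicate 1 (-0.21), DMSO replicate 3 (-0.20) or icaritin replicate 2 (-0.19) of that line.

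FADS1 and FADS2 overlap in the annotation, and the sources used here do not say whether counting used strand, so reads of the shared stretch could be split between them. With the counts of both genes summed to 1 feature, the log2 fold change was 1.04 in SNT-8, 0.54 in SNT-16 and -0.39 in SNK-10, each called as for FADS2 alone. The deposited transcript length of FADS2, averaged over its isoforms, was 3225 to 3311 bases in SNK-10 libraries and 3025 to 3187 bases in SNT libraries, which enters its FPKM but not its expected count.

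FADS3, which acts on the sphingoid bases of ceramides, differed little between treatments. With icaritin it had 10.23, 13.49 and 14.62 FPKM in SNT-8, against 9.44, 8.54 and 11.82 FPKM with DMSO, and these ranges overlapped. In SNK-10 the icaritin libraries had 10.36, 10.87 and 10.76 FPKM and the DMSO libraries 8.87, 8 and 9.38 FPKM, without overlap. In SNT-16 the values were 11.89, 11.50 and 10 FPKM with icaritin and 9.62, 10.69 and 9.17 FPKM with DMSO, and these overlapped. The log2 fold change was 0.32 in SNT-8 (SE 0.114) and in SNK-10 (SE 0.121), called in both, and 0.16 (SE 0.117) in SNT-16, not called. Neither call was stable. The SNT-8 call was lost without SNT-8 DMSO replicate 1 (log2 fold change 0.28) or 2 (0.22), without icaritin replicate 2 (0.26) or 3 (0.22), and in a fit on that line alone (0.32). The SNK-10 call was lost without SNK-10 DMSO replicate 1 (log2 fold change 0.33) or 2 (0.25), without icaritin replicate 2 (0.32) or 3 (0.29), and in limma on log2(FPKM + 1) (0.26) or log2(FPKM + 0.1) (0.29).

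Among the elongases, ELOVL1 makes the very long saturated and monounsaturated chains of sphingolipids. Its FPKM was 23.69, 18.94 and 25.18 with icaritin and 36.59, 35.99 and 36.16 with DMSO in SNT-8. In SNK-10 it was 34.41, 30.96 and 30.21 with icaritin and 43.69, 46.04 and 48.38 with DMSO. In SNT-16 it was 24.57, 31.03 and 30.17 with icaritin and 40.96, 41.07 and 45.19 with DMSO. No icaritin library overlapped the DMSO libraries of its line. Log2 fold changes were -0.76 (SE 0.0802) in SNT-8, -0.51 (SE 0.0749) in SNK-10 and -0.59 (SE 0.0762) in SNT-16, called in each.

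ELOVL6, the elongase that turns palmitate into stearate, the substrate of SCD, showed the same direction. In SNT-8 it had 5.64, 6.50 and 5.66 FPKM with icaritin, against 9.62, 11.34 and 9.54 FPKM with DMSO. In SNK-10 it had 6.18, 6.91 and 6.15 FPKM with icaritin, against 10.24, 11.29 and 11.43 FPKM with DMSO. In SNT-16 it had 6.75, 5.45 and 5.55 FPKM with icaritin, against 9.02, 8.57 and 8.22 FPKM with DMSO. The icaritin libraries were again below every DMSO library of their line. Its log2 fold changes were -0.82 (SE 0.0913) in SNT-8, -0.74 (SE 0.0901) in SNK-10 and -0.58 (SE 0.0942) in SNT-16, called in each.

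ELOVL5, the elongase of polyunsaturated chains, was slightly higher with icaritin in SNK-10 and SNT-16. It had 130.43, 133.19 and 136.51 FPKM with icaritin and 120.81, 127.49 and 120.69 FPKM with DMSO in SNK-10. In SNT-16 it had 76.25, 77.87 and 80.60 FPKM with icaritin and 71.80, 69.30 and 66.32 FPKM with DMSO. The groups did not overlap in these lines, whereas in SNT-8 they did, at 70.99, 78.08 and 72.09 FPKM with icaritin and 73.14, 71.21 and 68.44 FPKM with DMSO. The log2 fold change was 0.16 (SE 0.05) in SNK-10 and 0.17 (SE 0.0524) in SNT-16, both called, and -0.01 (SE 0.0524) in SNT-8, not called. The SNK-10 call was lost without SNK-10 icaritin replicate 3 (log2 fold change 0.11), and the SNT-16 call without SNT-16 DMSO replicate 3 (0.15) or icaritin replicate 3 (0.14). The ELOVL5 response of SNK-10 minus that of SNT-8 was 0.17 (SE 0.0724) and was not called. Without SNT-8 icaritin replicate 2 this difference was 0.23 and was called, and ELOVL5 was then also called in the interaction test over all 3 lines.

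ELOVL7, an elongase of long saturated chains, was the weakest elongase, with 12.7 to 41.9 expected counts per library. Its FPKM was 0.59, 0.63 and 1.01 with icaritin and 1.07, 0.55 and 0.73 with DMSO in SNT-8, 0.77, 0.75 and 0.33 with icaritin and 0.48, 0.36 and 0.41 with DMSO in SNK-10, and 0.84, 0.81 and 0.55 with icaritin and 0.96, 0.49 and 0.66 with DMSO in SNT-16. The groups overlapped in all 3 lines and no response was called. The log2 fold change was 0.62 in SNK-10, with an SE of 0.337, and this response was called only without SNK-10 icaritin replicate 3, where it was 0.90.

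Counted over the 8 members, 5 were called in SNT-8, 7 in SNK-10 and 5 in SNT-16, where 49.1%, 48.4% and 42% of all tested genes were called. In SNT-8, 2 members were higher and 3 lower, while 24% of all genes were higher and 25% lower. In SNK-10, 2 were higher and 5 lower, while 24.4% of all genes were higher and 24% lower. In SNT-16, 2 were higher and 3 lower, while 21.2% of all genes were higher and 20.8% lower. SCD, ELOVL1 and ELOVL6 were the 3 members called lower in all 3 lines, as were 2065 genes, or 14.3% of those tested. No member was called higher in all 3 lines, where 13% of tested genes were. By FPKM alone, 1 member was higher in every icaritin library than in any DMSO library of SNT-8 and 3 were lower, where 30.2% and 23.6% of tested genes did so. In SNK-10 the icaritin libraries stood apart above for 2 members and below for 5, beside 25% and 29.8% of tested genes. In SNT-16 they stood apart above for 2 and below for 3, beside 28.5% and 23.6%. Since the choice of members used these contrasts, nothing is read from the counts.

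**Figure D2:**
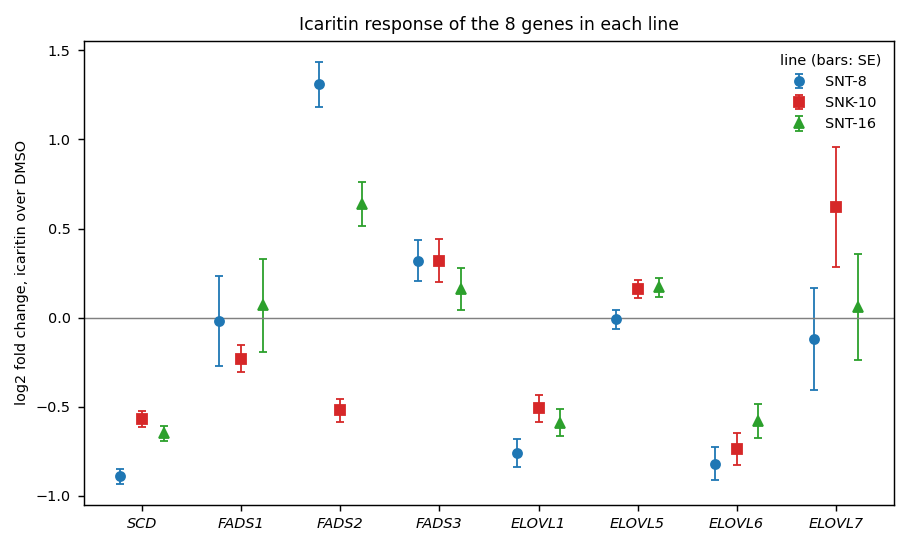
Log2 fold change of icaritin over DMSO for each member in SNT-8 (circles), SNK-10 (squares) and SNT-16 (triangles); bars are the SE of the fit. SCD, ELOVL1 and ELOVL6 lie below 0 in all 3 lines, and FADS2 lies at 1.31 and 0.64 in the SNT lines and at -0.52 in SNK-10.

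The make-up of the desaturase family changed with these responses. SCD made up 78.8% ± 2.08 (SD, n = 3) of the summed desaturase FPKM with icaritin and 90.8% ± 0.993 with DMSO in SNT-8, and 82.2% ± 1.07 with icaritin and 89.8% ± 0.685 with DMSO in SNT-16. In SNK-10 its share was 53.0% ± 1.04 with icaritin and 58.1% ± 1.56 with DMSO. FADS1 and FADS2 took 14.8% ± 0.574 and 21.8% ± 1.42 of the sum in SNK-10 with icaritin, and 12.8% ± 0.549 and 23.0% ± 0.729 with DMSO. In the SNT lines FADS2 took 5.69% ± 0.511 with icaritin and 1.43% ± 0.282 with DMSO in SNT-8, and 4.60% ± 0.400 with icaritin and 2.01% ± 0.123 with DMSO in SNT-16. FADS1 stayed below 1% of the sum in each SNT library. FADS3 took 14.9% ± 2.35 with icaritin and 7.43% ± 1.09 with DMSO in SNT-8. It took 12.6% ± 1.03 with icaritin and 7.85% ± 0.662 with DMSO in SNT-16. In SNK-10 the FADS3 share was 10.4% ± 0.279 with icaritin and 6.12% ± 0.326 with DMSO. Among the elongases, ELOVL5 made up 71.6% ± 2.99 with icaritin and 60.0% ± 0.615 with DMSO in SNT-8, 77.4% ± 1.45 and 68.2% ± 1.26 in SNK-10, and 69.0% ± 1.36 and 57.2% ± 1.85 in SNT-16, in the same order of treatments. Its share was higher in every icaritin library than in any DMSO library of the same line, and the shares of a family are tied to each other because they sum to 100%.

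The DMSO libraries showed how the lines differed without icaritin, after 12 h in the solvent. FADS1 was 5.18 higher on the log2 scale in SNK-10 than in SNT-8 (SE 0.127) and 5.35 higher than in SNT-16 (SE 0.130). FADS2 was 4.22 higher in SNK-10 than in SNT-8 (SE 0.0937) and 3.84 higher than in SNT-16 (SE 0.0891). ELOVL5 was 0.76 (SE 0.0514) and 0.86 (SE 0.0516) higher in SNK-10 than in SNT-8 and SNT-16. Each was called in both comparisons, and the differences of ELOVL5 were much smaller than those of FADS1 and FADS2. SCD was the member called lower in SNK-10 in both, at -0.54 (SE 0.0419) relative to SNT-8 and -0.38 (SE 0.0419) relative to SNT-16.

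The other members differed less between lines. ELOVL1 was 0.34 higher in SNK-10 than in SNT-8 (SE 0.0731) and 0.16 higher than in SNT-16 (SE 0.0720); both were called. The call against SNT-16 was lost in 9 of 22 alternative settings, with differences of 0.14 to 0.18: the DESeq2 test, and the fits without any 1 of the 3 SNT-8 DMSO replicates, SNK-10 DMSO replicate 2 or 3, SNK-10 icaritin replicate 2, or SNT-16 DMSO replicate 1 or 2. ELOVL6 was 0.41 higher in SNK-10 than in SNT-16 (SE 0.0859), which was called, and 0.12 higher than in SNT-8 (SE 0.0836), which was not. FADS3 differed by -0.17 and -0.11 and was not called. ELOVL7 was -0.93 in SNK-10 relative to SNT-8 (SE 0.322), called except without SNT-8 DMSO replicate 1 (-0.64) or SNK-10 DMSO replicate 2 (-0.82). Relative to SNT-16 it was -0.72 (SE 0.329), called only without the filter (-0.71) and without SNT-8 icaritin replicate 3 (-0.72), SNK-10 icaritin replicate 3 (-0.72) or SNT-16 DMSO replicate 2 (-0.92). In all, 6 members were called in each comparison with SNK-10, where 57.6% of tested genes were called against SNT-8 and 57.8% against SNT-16. Between SNT-8 and SNT-16, the members called were SCD, 0.15 higher in SNT-8 (SE 0.0415), and ELOVL6, 0.29 higher (SE 0.0864), beside 13.2% of tested genes. The SCD call was lost without SNT-8 DMSO replicate 3 (0.14) or SNT-16 DMSO replicate 2 (0.14), and the ELOVL6 call without SNT-8 DMSO replicate 2 (0.20), SNT-16 DMSO replicate 2 (0.29) or SNT-16 DMSO replicate 3 (0.26). FADS2 was -0.38 in SNT-8 relative to SNT-16 (SE 0.144) and was called only without SNT-8 DMSO replicate 2 (-0.54). The summed FPKM of the NK and T cell markers also differed, at 1189 to 1201 in SNK-10 under DMSO, 2262 to 2385 in SNT-8 and 2682 to 2747 in SNT-16. GZMB was the largest marker in this sum, with means of 483, 1392 and 1784 FPKM in the same order. Of the 8 markers, 6 were called lower in SNK-10 than in each SNT line, CD7 was called higher than in each, and CD247 was not called. The part of the markers in the differences of the members was not tested.

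FADS1 and FADS2 were among 730 genes, or 5.07% of those tested, that were called and over 8-fold higher in SNK-10 than in both SNT lines. No member elongase was among them. Neither was any of the 13 tested SREBP and LXR regulators, 18 acyl-CoA synthetases and remodelling genes or 5 tested neighbours of the FADS genes. In the related lists, the genes past the same limits were ELOVL4 among 4 tested genes of the wider desaturase and elongase family, HACD1 and CYB5A among 13 of the elongation cycle and its electron donors, ACSS2 and ME1 among 10 of fatty acid synthesis, and CPT1A among 21 of fatty acid oxidation. These 6 were singled out after their values were seen, and ELOVL4, HACD1, CYB5A and ME1 were at 0 in all SNT-8 DMSO libraries, so their fold over that line has no measured size. HACD1 was also at 0 in all SNT-16 DMSO libraries, so its fold over SNT-16 has none either. ELOVL4, HACD1, CYB5A, ACSS2 and ME1 passed the filter on low counts only through SNK-10. A higher level in SNK-10 was thus fixed in advance for them. How many of the 730 genes were of this kind was not counted. CYB5A, the cytochrome b5 that passes electrons to desaturases, had 32.66, 30.58 and 37.60 FPKM in DMSO libraries of SNK-10, was taken as 0 in those of SNT-8 and reached at most 0.26 FPKM in those of SNT-16. It rose with icaritin in SNK-10, by 0.46 on the log2 scale (SE 0.101, adjusted p = 0.000289), with 42.06, 49.52 and 43.80 FPKM in the icaritin libraries. ELOVL4, the elongase of the longest chains, averaged 6.37 ± 0.472 FPKM in SNK-10 under DMSO (SD, n = 3) and at most 0.03 FPKM in any DMSO library of the SNT lines. CPT1A, the carnitine transferase that admits fatty acids to mitochondria, averaged 34.7 ± 0.802 FPKM in SNK-10, against 1.71 ± 0.263 in SNT-8 and 1.87 ± 0.370 in SNT-16.

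**Figure D3:**
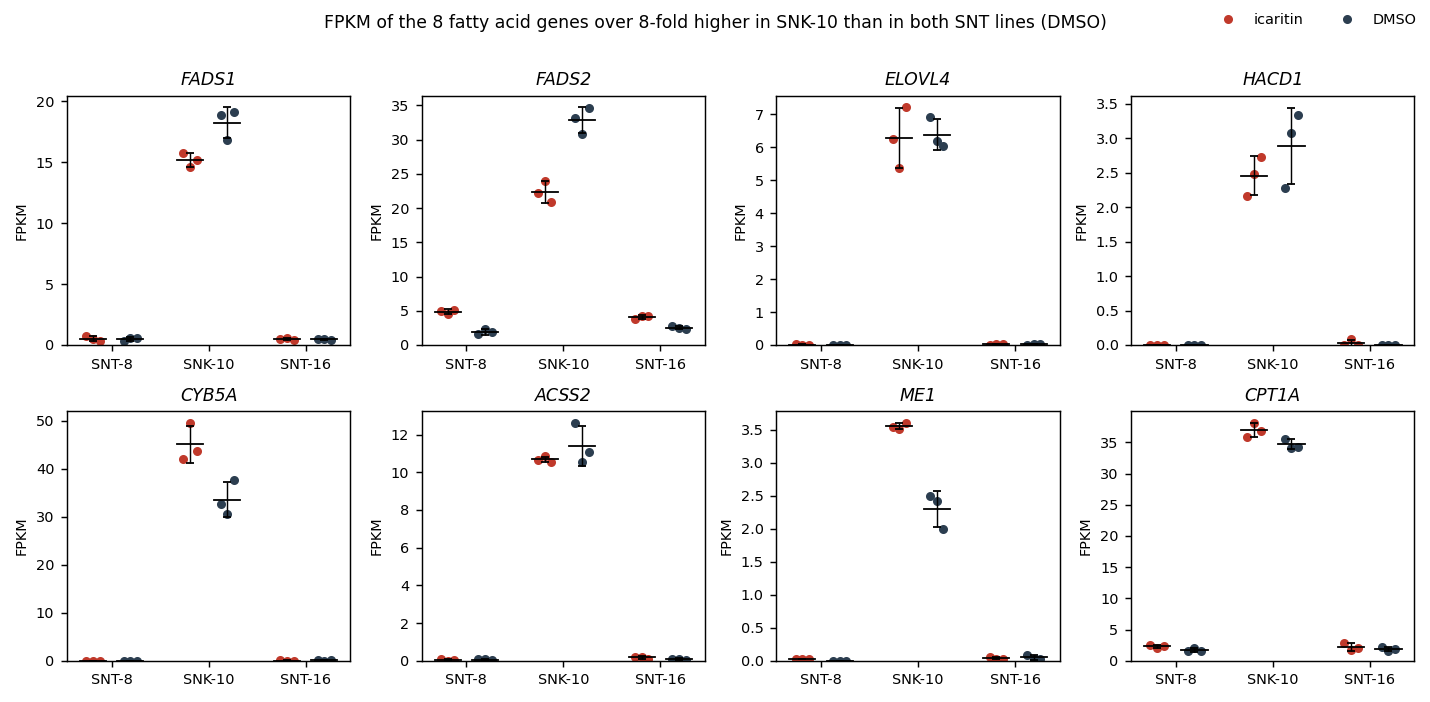
FPKM of FADS1, FADS2 and the 6 related genes that were called and over 8-fold higher in SNK-10 than in both SNT lines under DMSO, with icaritin in red left of DMSO in dark blue; points are libraries, bars the mean and SD of 3. ELOVL4, HACD1, CYB5A, ACSS2 and ME1 were at or near 0 in the SNT lines under either treatment and passed the filter on low counts only through SNK-10.

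The rest of the pathway was read from lists of related genes. Across the 3 lines the mean icaritin response had a median of 0.029 on the log2 scale over all tested genes, of which 61.7% were called. The fatty acid synthesis list had a median of -0.25, with 2 genes that rose and 5 that fell among 10 tested. Without ME1, whose SNT-8 DMSO libraries were all at 0, the median was -0.35. FASN, the synthase that supplies palmitate to ELOVL6 and SCD, had 28.81, 26.56 and 33.16 FPKM with icaritin and 70.26, 75.53 and 72.54 FPKM with DMSO in SNT-8. On the log2 scale the change in SNT-8 was -1.35 (SE 0.0567) with an adjusted p of 1.5e-19. FASN also fell in SNK-10, by 1.28 (SE 0.0567, adjusted p = 6.11e-19), and in SNT-16, by 1.11 (SE 0.0565, adjusted p = 3.42e-17). ACLY, which makes cytosolic acetyl-CoA, ACACA, which makes malonyl-CoA, and SLC25A1, which exports citrate from mitochondria, also fell in each line, by mean log2 responses of -0.42, -0.46 and -0.48. ACACB, the carboxylase form of the mitochondrial surface, rose by 0.84 (adjusted p = 4.88e-10 for the mean).

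In the list of SREBP and LXR regulators, 4 genes rose and 5 fell among 13 tested, with a median of -0.07. SREBF1, the gene of SREBP-1c, did not pass in any line, at -0.11 in SNT-8, 0.09 in SNK-10 and -0.11 in SNT-16. INSIG1, which holds the SREBP escort in the endoplasmic reticulum, fell in SNT-8 (-0.71, adjusted p = 2.97e-14) and in SNT-16 (-0.40, adjusted p = 5.96e-08), and was at 0.03 in SNK-10, where it did not pass (0.720). The INSIG1 responses differed between lines (interaction adjusted p = 2.2e-08). SCAP, the escort itself, MLX, a partner of the carbohydrate-responsive factor, and NR1H2, an LXR, fell in each line, by mean responses of -0.36, -0.36 and -0.28.

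The list of the elongation cycle and its electron donors had 5 genes that rose and 1 that fell among 13, with a median of 0.05, also without HACD1 and CYB5A, which were at 0 in all libraries of at least 1 group. HSD17B12, the ketoacyl reductase of the cycle, rose by 0.22 in SNT-8, 0.23 in SNK-10 and 0.59 in SNT-16. TECR, the reductase of its last step, fell in the same lines, with log2 fold changes of -0.32, -0.27 and -0.33, and was the gene that fell. CYB5R3, a reductase of cytochrome b5, rose by 0.10 on the mean of the lines, and CYB5RL by 0.41. In the wider family, 4 of 7 genes could be tested, and their median was 0.23, or 0.19 without ELOVL4. DEGS1, the dihydroceramide desaturase, fell in each line, with log2 fold changes of -0.60 in SNT-8, -0.38 in SNK-10 and -0.38 in SNT-16. SCD5, the second stearoyl-CoA desaturase of humans, rose by 0.19 on the mean of the lines (adjusted p = 0.000589). FADS6 (0.28) did not pass. ELOVL4 did not pass either: its response was 0.01 (SE 0.131) in SNK-10, and in SNT-8 it was at 0 in all DMSO libraries and has no measured fold.

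Enzymes that use the products form the next list. Among its 18 acyl-CoA synthetases and phospholipid remodelling genes, 3 rose and 12 fell, with a median of -0.25. ACSL4, which activates arachidonate, had a mean response of -0.32 (adjusted p = 2.7e-12), and LPCAT3, which places polyunsaturated chains into phospholipids, one of -0.25 (adjusted p = 1.09e-05). SLC27A4, a fatty acid transport protein, and LPCAT1, which places saturated chains into phosphatidylcholine, had mean responses of -0.56 and -0.36 and also fell. ACSL1, a synthetase of long chains, and MBOAT1, an acyltransferase of phosphatidylserine and phosphatidylethanolamine, rose by 0.53 and 0.79. The oxidation list had 7 genes that rose and 5 that fell among 21 tested of 25, with a median of 0.02. ECI1, an isomerase needed to oxidise unsaturated chains, rose by 0.59, and PPARD, a fatty acid receptor, by 0.35, while HSD17B4 of peroxisomes and ETFDH of the electron transfer chain fell, with mean responses of -0.25 and -0.30. The tests behind these counts are on the mean response, by edgeR's quasi-likelihood test adjusted over all genes. For the mean response, rises and falls were not counted apart over all tested genes. Nothing is therefore read from the numbers of genes that rose or fell in the lists.

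**Figure D4:**
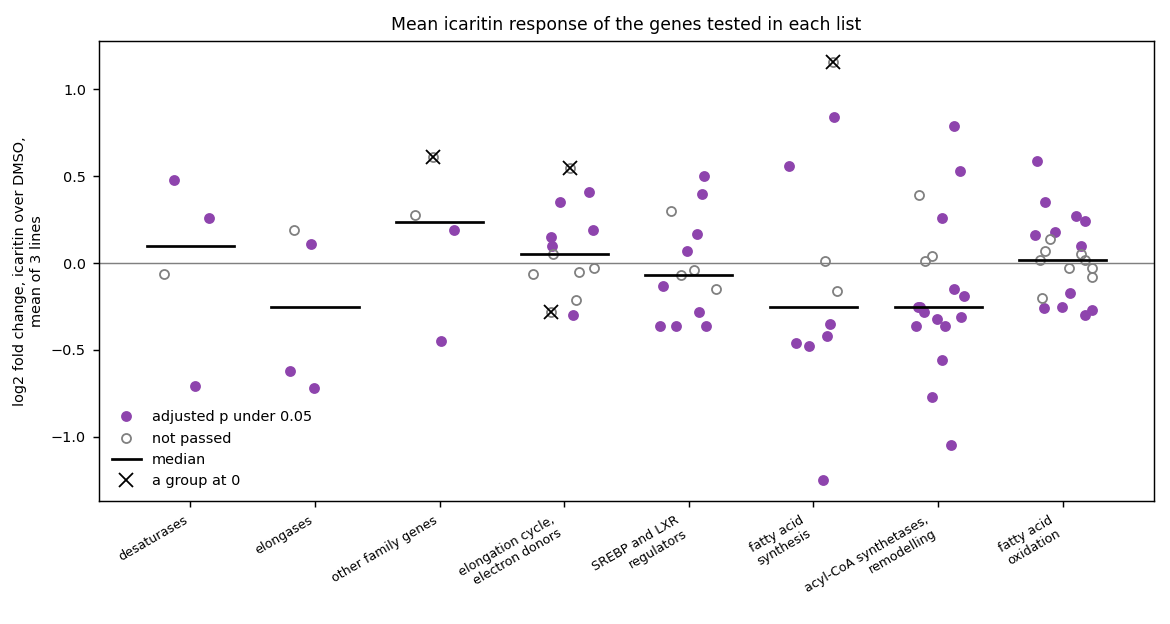
Mean icaritin response over the 3 lines (log2 fold change, icaritin over DMSO) of each tested gene of the members and the related lists; filled points passed an adjusted p of 0.05, open points did not, crosses mark genes at 0 in all libraries of a group, and bars are medians. The synthesis list and the list of acyl-CoA synthetases and remodelling genes both had a median of -0.25, with single genes between -1.25 and 0.84 apart from ME1, which is crossed.

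Genes around FADS1, FADS2 and FADS3 on chromosome 11 are given for comparison, and each of those tested had 1 sign of the log2 fold change in all 3 lines. For TMEM258 that sign is uncertain: it was at 0.16 in SNK-10 and 0.03 (SE 0.0861) in SNT-16 and passed in neither. Its SNT-16 sign changed without SNT-16 DMSO replicate 1. Of 7 neighbours, 5 could be tested: FTH1, the ferritin heavy chain, BEST1, a chloride channel, MYRF, a membrane-bound transcription factor, and TMEM258, a subunit of the oligosaccharyltransferase, rose on the mean of the lines by 0.25, 0.79, 1.16 and 0.14, and FEN1, a flap endonuclease, fell by 0.23. Their interaction adjusted p in edgeR lay between 0.0555 for FEN1 and 0.937 for MYRF. FEN1 passed without SNT-8 icaritin replicate 2 (0.0297) or SNK-10 icaritin replicate 2 (0.0318) or 3 (0.0316). FTH1, at 0.0738, passed by DESeq2 (0.0379), without the filter (0.00324), and without SNT-8 DMSO replicate 3 (0.0203), SNT-8 icaritin replicate 1 (0.0235) or SNK-10 icaritin replicate 2 (0.0404). MYRF was read from 0.09 to 0.48 FPKM as group means.

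For each member, the tested genes of at least 10 CPM (counts scaled to library size) closest in pattern over the 6 groups were found by the root mean square distance of log2 CPM, each gene centred on its own mean, among 9331 genes (9332 for ELOVL7). SCD was nearest to MAPKAPK3 at 0.0598. ELOVL1 was nearest to EXOSC6 at 0.0284 and PBDC1 at 0.0427, and ELOVL6 to BMS1 at 0.0405 and TIMM13 at 0.0602. ELOVL5 was nearest to SELENOF at 0.0265 and NOMO2 at 0.0448, FADS3 to PPFIA1 at 0.0175 and EPS15L1 at 0.0261, and ELOVL7 to CTSZ at 0.0403 and MTHFS at 0.0476. FADS1 and FADS2 had more distant neighbours, DDX4 at 0.149 and RASSF8 at 0.156 for FADS1, and NEDD9 at 0.220 and ADPRH at 0.336 for FADS2. NEDD9 had log2 fold changes of 0.65 in SNT-8, -0.33 in SNK-10 and 0.74 in SNT-16. In the same order of lines, ADPRH had 1.33, -0.02 and 1.2. DDX4 had 0.03, -0.03 and 0.04, and RASSF8 had 0.24, 0.01 and -0.32. The distance also counts differences of level between lines, so a near gene need not share the icaritin response.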

How the data were processed

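RNA of 3 lymphoma lines was sequenced after icaritin or DMSO; per the labels' protocols, Trizol extraction preceded an MGIEasy library kit. Bowtie2 and HISAT are named, without version, in the submitters' processing notes; the sources used here do not give the counting tool, genome build or strandedness. The authors deposited, per the file headers, an expected count per gene and its FPKM, with the transcript length used. Genes absent from a library's file were set to 0. Of 21662 gene IDs, 21559 were given a symbol by ID and 24 by transcript, and 79 had none.

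Expected counts were rounded and tested with edgeR 4.0.16 in R 4.3.3: filterByExpr (minimum count 10, minimum total 15), TMM, and 1 robust quasi-likelihood fit of 6 group means over 18 libraries with 12 residual degrees of freedom, two-sided, Benjamini-Hochberg over 14396 genes. SE is the absolute log2 fold change over the square root of F. The procedure was tested on simulated data. No pair of replicates agreed within sampling noise (chi-square per gene 1.36 to 8.2). FPKM compares genes per length and was not tested in the reported results. limma 3.58.1 and DESeq2 1.42.0 were alternatives.

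The members and lists were chosen with earlier results of these data known. Named are all members, the 4 genes per list with the smallest p for the mean response, every gene of a list with fewer than 5 tested, FASN, SREBF1, LPCAT3 and ACSL4, the FADS neighbours, and the 2 genes nearest each member in pattern; ACACB, CYB5A, HACD1, ACSS2, ME1 and CPT1A were named after their values were seen. For SCD, a further gene close in pattern is not reported here.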

Additional observations from a re-analysis of the deposited data

Results flagged for a closer look

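The icaritin response differed between the 3 lines, by edgeR's interaction test of the fit over all genes, for 5 of the genes named from the related lists. In all, 56 genes were named, among them the members and the genes picked for a pattern like theirs. Members and genes of like pattern are left out here, since their responses chose them. The genes kept were not chosen blind to the data either: up to 4 per list had the smallest p for the mean icaritin response. For INSIG1 the adjusted p was 2.2e-08, with log2 responses of -0.71 in SNT-8, 0.03 in SNK-10 and -0.40 in SNT-16. LPCAT1 had 4.67e-08, with -0.27, -0.68 and -0.12 in the same order of lines. ACSL1 had 0.001, with 0.70, 0.34 and 0.54. For HSD17B12 it was 0.0183, with 0.22, 0.23 and 0.59, and it did not pass without SNT-16 DMSO replicate 1 (0.076) or SNT-16 icaritin replicate 3 (0.0523), or with replicate number as a block (0.05). For DEGS1 it was 0.0326, with -0.60, -0.38 and -0.38, and it did not pass without SNT-8 DMSO replicate 1 (0.173), SNT-8 icaritin replicate 3 (0.0992), SNK-10 DMSO replicate 1 or 2 (0.0614 each), SNT-16 DMSO replicate 2 (0.0541) or 3 (0.0521), or SNT-16 icaritin replicate 3 (0.0604). The same test passed for 14.3% of all tested genes, and nothing is read from the number of genes flagged here.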

How the results depend on the processing

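The icaritin responses of SCD, ELOVL1, ELOVL6 and FADS2 kept their direction and their call in each line under all 25 alternatives run for each (DESeq2 size factors, DESeq2 test, no filter, replicate block, the line's own libraries, limma on FPKM, and 1 library left out). For SCD the log2 fold change ranged over -0.93 to -0.83 in SNT-8, -0.61 to -0.55 in SNK-10 and -0.67 to -0.62 in SNT-16, and for FADS2 over 1.02 to 1.46, -0.57 to -0.48 and 0.52 to 0.71. Calls of FADS1, FADS3, ELOVL5 and ELOVL7 that depended on a setting stand in the report. Values that passed in neither setting were read as unchanged whatever their sign, which changed 94 times. The comparison of the SNT-8 with the SNT-16 response was the least stable: 63 genes and 0 members were called, against 279 and 2 (FADS2 and SCD) without the filter, 110 and 1 (SCD) with DESeq2, and 17 to 178 and 0 to 2 with 1 library left out. Between SNT-8 and SNT-16 under DMSO, 2 members and 1904 genes were called, against 0 to 2 and 1301 to 2302 with 1 library left out. With 1 library left out, members called were 4 to 5 in SNT-8, 5 to 7 in SNK-10 and 4 to 5 in SNT-16, beside 6379 to 7244, 6298 to 7266 and 5379 to 6363 of all genes. Replicate numbers did not pair the libraries (correlations of same-numbered deviations -0.129 to 0.0418; 1 of 9 icaritin libraries was closest to its own number); with replicate number as a block, 6847, 6788 and 5819 genes were called in SNT-8, SNK-10 and SNT-16, against 7062, 6970 and 6051 without it, and 5, 7 and 5 members in both. The list medians without genes at 0 in all libraries of a group were added after seeing the data. Rescaling FPKM to TPM multiplied all levels of a library by 2.07 to 2.19. FADS1 and ELOVL7 in the SNT lines rest on few counts, which limits what could be detected.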
